A study of Mus musculus with 8 samples.

Results

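The genes described here are 10 transcripts of meningeal fibroblasts and of the collagens these cells secrete: Dcn, Lum, Ogn, Igf2, Col1a1, Col1a2, Col3a1, Slc6a13, Aldh1a2 and Fmod. The list was set by gene symbol, with earlier results of these data known, and all 10 were found among the 22180 genes of the deposited table. They were measured in total brain RNA on 8 Affymetrix whole-transcript arrays, 2 in each of 4 groups. The groups were C57BL/6Je/e mice (e/e below, yellow coat) given NDP-MSH, e/e mice given phosphate-buffered saline (PBS), wild-type mice (black coat) given NDP-MSH, and wild-type mice given PBS. The e/e allele inactivates Mc1r, a melanocortin receptor, and NDP-MSH is a stable synthetic form of alpha-MSH, the hormone that binds receptors of this family. All 4 groups had been immunized with the myelin protein MOG, which starts an autoimmune attack on central nervous myelin, and brains were taken on day 14, at the disease maximum. NDP-MSH was injected into a vein at 5 µg per mouse on days 8, 10 and 12. No group without immunization was analysed here. The labels give neither sex nor age, and no source used here says whether the replicates were separate animals, and the p-values therefore cover only the variation among these samples, which may be technical.

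The meninges are the membranes that wrap the brain, and fibroblasts build their collagen-rich sheets. Type I collagen is a triple helix of chains from Col1a1 and Col1a2, and type III collagen is built from the chain of Col3a1. Decorin (Dcn), lumican (Lum), fibromodulin (Fmod) and osteoglycin (Ogn) are small leucine-rich proteoglycans, proteins that bind collagen fibrils and shape how they assemble. Fibroblasts of the leptomeninges also make retinoic acid through Aldh1a2, carry the GABA and taurine transporter Slc6a13, and secrete the growth factor encoded by Igf2. In a whole brain these cells are a thin outer layer, so in bulk RNA fewer cells of this type and less RNA per cell cannot be told apart.

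The sequences upstream of the start site are shown for 4 of these genes. Aldh1a2, Ogn and Fmod are 3 of the 4 genes with their highest value in wild-type NDP-MSH 2 (the fourth, Slc6a13, has several annotated start sites), and Col1a2 encodes the partner chain of Col1a1. The RefSeq promoter table of build GRCm38.p6 held an entry for 7 of the 10 genes, and none for Dcn, Lum and Col1a1. Each sequence is the 250 bases before the annotated start site, 5′ to 3′, and capitals mark the letters CCAAT or TATAAA on either strand.
Aldh1a2, chr9:71215539-71215788, plus strand: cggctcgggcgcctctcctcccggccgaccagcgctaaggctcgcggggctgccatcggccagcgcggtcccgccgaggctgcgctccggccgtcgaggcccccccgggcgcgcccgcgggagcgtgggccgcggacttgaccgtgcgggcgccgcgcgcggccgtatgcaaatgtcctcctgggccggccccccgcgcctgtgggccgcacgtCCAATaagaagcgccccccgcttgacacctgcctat
Ogn, chr13:49607765-49608014, plus strand: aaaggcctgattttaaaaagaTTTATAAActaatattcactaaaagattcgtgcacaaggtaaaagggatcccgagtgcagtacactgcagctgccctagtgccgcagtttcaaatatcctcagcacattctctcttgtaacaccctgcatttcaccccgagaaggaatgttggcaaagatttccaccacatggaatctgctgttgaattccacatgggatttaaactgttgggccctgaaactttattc
Fmod, chr1:134037004-134037253, plus strand: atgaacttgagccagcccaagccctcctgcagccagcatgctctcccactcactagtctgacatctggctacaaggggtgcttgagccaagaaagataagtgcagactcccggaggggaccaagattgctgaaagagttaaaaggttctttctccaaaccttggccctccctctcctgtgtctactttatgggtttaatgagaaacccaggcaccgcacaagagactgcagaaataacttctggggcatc
Col1a2, chr6:4505368-4505617, plus strand: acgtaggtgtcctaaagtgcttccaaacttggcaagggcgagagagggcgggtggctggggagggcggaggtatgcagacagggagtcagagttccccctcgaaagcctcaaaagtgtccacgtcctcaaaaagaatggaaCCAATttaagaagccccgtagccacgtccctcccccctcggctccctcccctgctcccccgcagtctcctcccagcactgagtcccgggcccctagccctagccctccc
The CCAAT letters, the core of the CCAAT box, were found 36 bases before the start of Aldh1a2 and 109 bases before that of Col1a2. They are in 33.85% of 32851 mouse windows of this length. The Ogn window held 2 overlapping TATAAA matches, one on each strand, a motif found in 12.37% of windows. AGGTCA, the core site of retinoic acid and other nuclear receptors, was in none of the 4 windows shown, in 2 of 12 windows over all start sites of the 7 genes (1 of Slc6a13 and 1 of Igf2), and in 14.02% of all windows. The Aldh1a2 window is rich in G and C (77.6%), while that of Ogn has 42.0%, against a median of 52.4% over all windows.

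Values are log2, a base that is assumed because it is not stated, and each gene is centred on its median over the 8 arrays, which leaves differences among arrays but no absolute levels. The single-precision rounding step left in the values puts 5 of the 10 genes (Dcn, Lum, Igf2, Slc6a13 and 1 of 2 probe sets of Fmod) at an array signal of 8 or above, and the others at 4 to 8. Of 14 measured marker genes of neurons and glia 11 had a probe set at 8 or above, against 29.8% of all genes. Several arrays stood apart, some alone and some together with the other array of their group. Prl and Gh, hormones of the anterior pituitary, reached 6.97 and 6.54 in wild-type NDP-MSH 1, while the other arrays held between -0.47 and 0.29. The cerebellar list had medians of -2.24 and -1.72 in wild-type mice given NDP-MSH, against -0.080 and 0.20 in wild-type mice given PBS. Both arrays of that group were thus low, and 9 of 11 measured cerebellar genes had an adjusted p under 0.05 by limma. All 9 were lower after NDP-MSH, where 0.171% of all genes were called lower. In wild-type NDP-MSH 2 the olfactory bulb gene Cdhr1 stood at 2.23, while the 7 measured genes of the olfactory bulb list had a median of 0.33 there and 2 of them lay below 0. Y-linked Eif2s3y lay at 2.78 and 2.87 in e/e mice given NDP-MSH, against -0.018 and 2.04 in e/e mice given PBS. The 4 wild-type arrays held between -0.19 and 0.018. Expression of this gene thus differed between the e/e PBS arrays, and between most e/e arrays and the wild-type arrays. Y-linked Uty (2.20 ± 0.64) and Kdm5d (1.46 ± 0.54) also had higher means in e/e mice given NDP-MSH than in e/e mice given PBS. Neither had an adjusted p under 0.05 by limma. X-linked Xist had a lower mean after NDP-MSH in e/e mice (-4.38 ± 0.48, adjusted p = 0.562 by limma) and ranked 1 by p over all genes. For the 4 measured sex-linked genes the median was -0.012 in e/e PBS 1 and 2.06 in e/e PBS 2, against 2.64 and 2.68 after NDP-MSH. The part of these differences, and of the sex of the animals, in the results below was not tested.

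**Figure D1:**
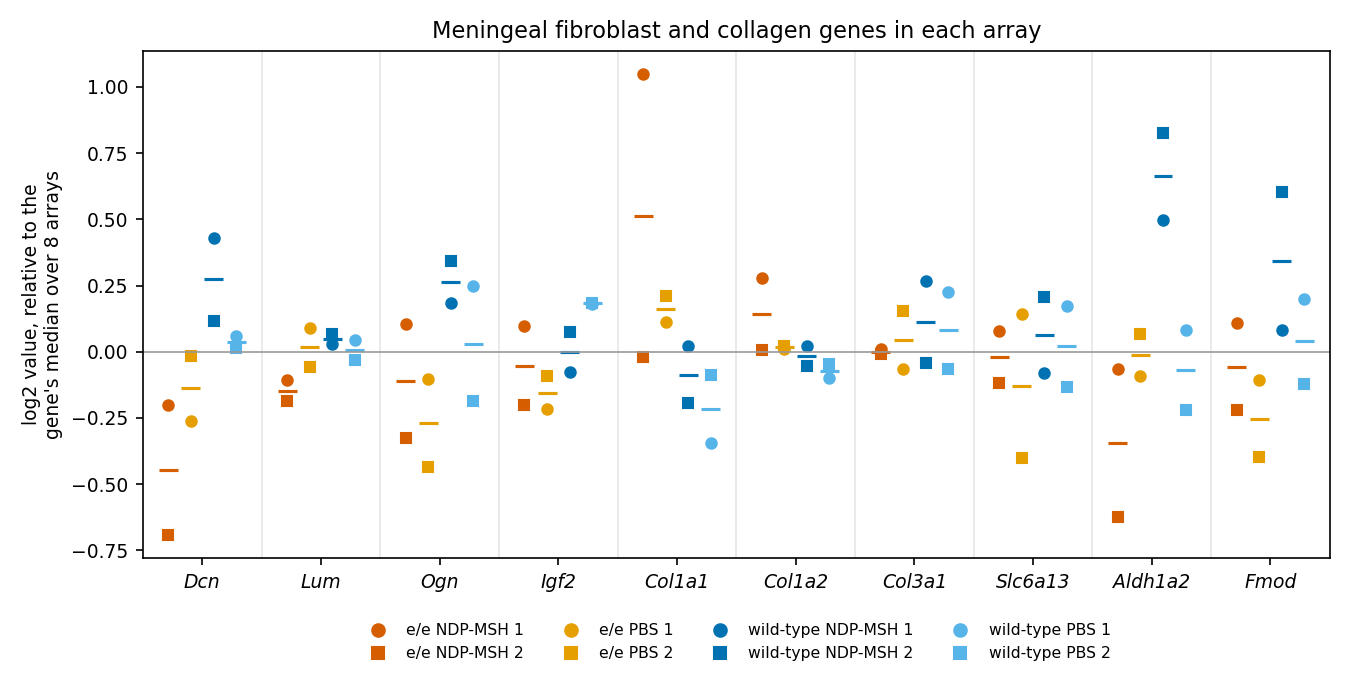
Log2 value of each of the 10 genes (horizontal axis) in each array, relative to the gene's median over the 8 arrays (vertical axis). Circles are replicate 1, squares replicate 2, colours the groups and short bars the group means of 2 arrays. Aldh1a2 reached 0.50 and 0.83 in wild-type mice given NDP-MSH, and Col1a1 reached 1.05 in e/e NDP-MSH 1 alone.

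In wild-type mice the question was which brain transcripts NDP-MSH changed. None of the 10 genes passed the threshold, an adjusted p of 0.05 by limma over 22180 genes, which 0.176% of all genes passed (0.00451% higher and 0.171% lower). At an unadjusted p under 0.05 the count was 1 of 10, against 12.3% of all genes. As group means 9 of the 10 were higher after NDP-MSH, where 55% of all genes were, with a median log2 difference of 0.094, against 0.018 over all genes. The 2 NDP-MSH arrays lay above both PBS arrays for 2 of 10 genes, as for 25.3% of all genes, and below them for 1 of 10, as for 18.9%. A difference of at least 0.25 was seen for 2 of 10, against 14.6% of all genes.

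Aldh1a2, the retinal dehydrogenase that completes retinoic acid synthesis, had the largest difference of the 10. It lay at 0.50 and 0.83 in wild-type mice given NDP-MSH, against 0.081 and -0.22 in wild-type mice given PBS. The groups did not overlap, and the difference was 0.73 ± 0.20 (SE), or 1.66-fold, with a 95% interval of 0.26 to 1.20 and an adjusted p = 0.258 by limma. Its relative Aldh1a1, which carries out the same step, went the other way in the same arrays. Aldh1a1 lay at -0.54 and -0.71 in wild-type mice given NDP-MSH, against 0.11 and 0.21 in wild-type mice given PBS. It fell by 0.79 ± 0.08 (limma, adjusted p = 0.0263) and was the one gene of 21 measured in the retinoic acid list that passed, while the list's median difference was 0.0055. Its value lay between -0.87 and -0.70 under 15 alternatives, but it passed under 7 and not under the other 8, with adjusted p of 0.00857 to 0.282. The call ended with the replicate block (adjusted p = 0.0628), in a fit of the 4 wild-type arrays alone (0.115), and whenever a wild-type array (0.07 to 0.282) or an e/e NDP-MSH array (0.0758) was left out. Cerebellar genes were low in these same 2 arrays.

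The proteoglycan genes were higher as group means after NDP-MSH in wild-type mice, and none passed the test. Dcn, whose protein decorin binds type I collagen and TGF-beta, lay at 0.43 and 0.12 in wild-type mice given NDP-MSH, against 0.059 and 0.015 in wild-type mice given PBS. These groups did not overlap, but replicate 1 stood far above replicate 2, and the difference of 0.24 ± 0.18 (adjusted p = 0.619, limma) was 0.078 without it. Fmod, which controls fibril thickness, lay at 0.083 and 0.60 in wild-type mice given NDP-MSH, against 0.20 and -0.12 in wild-type mice given PBS. Here replicate 2 was the high one, so the arrays overlapped, and the difference of 0.30 ± 0.21 was 0.044 without that array. Ogn lay at 0.18 and 0.34 in wild-type mice given NDP-MSH, against 0.25 and -0.19 in wild-type mice given PBS, again with overlap. Lum lay at 0.031 and 0.066 in wild-type mice given NDP-MSH, against 0.044 and -0.031 in wild-type mice given PBS. It varied least of the 10, with a range of 0.28 over all 8 arrays, and its 95% interval for the effect in wild-type mice ran from -0.15 to 0.23.

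None of the 3 collagen genes passed in wild-type mice, and the arrays of the groups overlapped for each. Col1a1 lay at 0.022 and -0.19 in wild-type mice given NDP-MSH, against -0.34 and -0.090 in wild-type mice given PBS. Col3a1 lay at 0.27 and -0.042 in wild-type mice given NDP-MSH, against 0.23 and -0.065 in wild-type mice given PBS, so that both groups held one higher and one lower array. The differences were 0.13 ± 0.30 for Col1a1, 0.058 ± 0.099 for Col1a2 and 0.031 ± 0.140 for Col3a1. The intervals were wide for Col1a1 (-0.57 to 0.83) and narrower for Col1a2 (-0.17 to 0.29).

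Igf2 was the only one of the 10 with a lower mean after NDP-MSH in wild-type mice. It lay at -0.076 and 0.076 in wild-type mice given NDP-MSH, against 0.18 in both arrays of wild-type mice given PBS. The groups did not overlap, and the difference was -0.18 ± 0.11 (limma, adjusted p = 0.536). Slc6a13 lay at -0.079 and 0.21 in wild-type mice given NDP-MSH, against 0.17 and -0.13 in wild-type mice given PBS, with a difference of 0.045 ± 0.196. The neighbouring transporter gene Slc6a12, which carries betaine and GABA, differed by -0.30 ± 0.08 in the same comparison, short of the threshold (adjusted p = 0.239, limma).

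**Figure D2:**
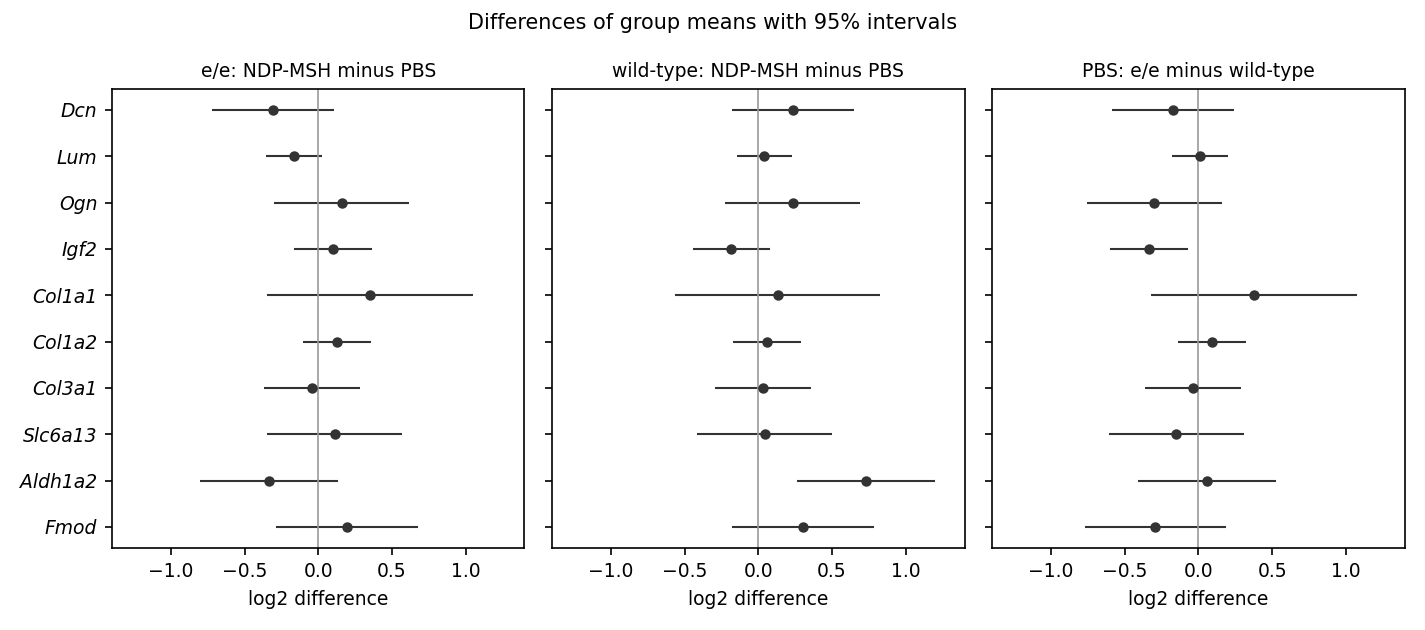
Log2 difference of group means (horizontal axis) for each gene, with 95% intervals from the limma fit over all 8 arrays (points are differences, bars intervals). Panels from left to right give NDP-MSH minus PBS in e/e mice, NDP-MSH minus PBS in wild-type mice, and e/e minus wild-type under PBS. The unadjusted intervals that leave out 0 are those of Aldh1a2 in wild-type mice (0.26 to 1.20) and Igf2 under PBS (-0.60 to -0.07).

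The same question was put to e/e animals, whose Mc1r is inactive. None of the 10 genes passed by limma (smallest adjusted p of 1, against 0% of all genes called), none had an unadjusted p under 0.05 (3.56% of all genes), and the median difference was 0.11, against 0.0082 over all genes. The NDP-MSH arrays lay above both PBS arrays for 0 of 10, where 16.0% of all genes did, and below them for 1 of 10 (Lum), where 14.3% did (30.3% in either direction). A difference of at least 0.25 was seen for 3 of 10 (Dcn, Col1a1 and Aldh1a2), against 5.68% of all genes. In each of these 3 the e/e NDP-MSH arrays lay at least 0.49 apart.

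Col1a1 lay at 1.05 and -0.022 in e/e mice given NDP-MSH, against 0.11 and 0.21 in e/e mice given PBS. The value of e/e NDP-MSH 1 was the highest of the 8, and e/e NDP-MSH 2 lay below both PBS arrays. The mean difference of 0.35 ± 0.30 turned to -0.18 without e/e NDP-MSH 1. Col1a2 was represented by 2 probe sets, and they disagreed in that array. The first lay at 0.53 and 0.010 in e/e mice given NDP-MSH, against -0.010 and 0.080 in e/e mice given PBS. The second stayed between -0.060 and 0.041 in all 8 arrays. Both chains of type I collagen were thus high in e/e NDP-MSH 1 by 1 probe set each, while Col3a1 lay at 0.0087 there. The bone and cartilage list (bone cells also make type I collagen, while cartilage makes chiefly type II) had medians of 0.076 and -0.022 in e/e mice given NDP-MSH, against 0.066 and -0.13 in e/e mice given PBS, and none of its 8 measured genes reached a signal of 8. The part of bone or cartilage in the Col1a1 value was not tested.

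Dcn and Aldh1a2 had their lowest values in e/e NDP-MSH 2. Dcn lay at -0.20 and -0.69 in e/e mice given NDP-MSH, against -0.26 and -0.015 in e/e mice given PBS, a difference of -0.31 ± 0.18. Aldh1a2 lay at -0.066 and -0.62 in e/e mice given NDP-MSH, against -0.091 and 0.066 in e/e mice given PBS, a difference of -0.33 ± 0.20. The groups overlapped for both genes. Lum lay at -0.11 and -0.19 in e/e mice given NDP-MSH, against 0.090 and -0.056 in e/e mice given PBS. Its groups did not overlap, and its difference of -0.16 ± 0.08 was the smallest in p of the 10 without passing (limma, adjusted p of 1).

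For the remaining genes the arrays of the e/e groups overlapped. Ogn lay at 0.10 and -0.33 in e/e mice given NDP-MSH, against -0.10 and -0.43 in e/e mice given PBS. Fmod lay at 0.11 and -0.22 in e/e mice given NDP-MSH, against -0.11 and -0.40 in e/e mice given PBS. Its 2 probe sets disagreed in e/e PBS 2, at -0.72 (signal of 8 or above) and -0.082 (signal of 4 to 8). Slc6a13 lay at 0.079 and -0.12 in e/e mice given NDP-MSH, against 0.14 and -0.40 in e/e mice given PBS. In all 3 genes replicate 2 lay below replicate 1 in both e/e groups, by the gene value. The Fmod probe set of lower signal went the other way under PBS (-0.16 and -0.082). Col3a1 lay at 0.0087 and -0.0087 in e/e mice given NDP-MSH, against -0.065 and 0.15 in e/e mice given PBS. Igf2 lay at 0.095 and -0.20 in e/e mice given NDP-MSH, against -0.22 and -0.093 in e/e mice given PBS, with e/e NDP-MSH 2 between the PBS arrays. The differences were 0.16 ± 0.20 for Ogn, 0.20 ± 0.21 for Fmod, 0.11 ± 0.20 for Slc6a13 and 0.10 ± 0.11 for Igf2.

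The genotypes were then compared in their response, as the treatment difference in wild-type mice minus that in e/e mice. None of the 10 genes passed by limma (0% of all genes did), 1 of 10 had an unadjusted p under 0.05 (7.71% of all genes), and 3 of 10 differed by at least 0.25 (20.3% of all genes). That 1 was Aldh1a2, whose effect was -0.33 in e/e mice and 0.73 in wild-type mice, a difference of 1.07 ± 0.28 (wild-type minus e/e, 95% interval of 0.40 to 1.73, adjusted p = 0.48). This p came from limma over all genes. Dcn had effects of -0.31 in e/e mice and 0.24 in wild-type mice, a difference of 0.55 ± 0.25 (adjusted p = 0.665).

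Under PBS, e/e mice were compared with wild-type mice. None of the 10 passed by limma (0% of all genes did), and 1 of 10 had an unadjusted p under 0.05, against 4.91% of all genes. This was Igf2, which lay at -0.22 and -0.093 in e/e mice given PBS, against 0.18 in both arrays of wild-type mice given PBS. The difference was -0.34 ± 0.11 (limma, adjusted p = 0.971). Both e/e PBS arrays lay above both wild-type PBS arrays for 2 of 10 genes (Col1a1 and Col1a2, with 17.4% of all genes) and below them for 2 of 10 (Dcn and Igf2, with 16.7%). Col1a1 lay at 0.11 and 0.21 in e/e mice given PBS, against -0.34 and -0.090 in the wild-type PBS arrays, a difference of 0.38 ± 0.30. A difference of at least 0.25 was seen for 4 of 10, against 6.50% of all genes. The 4 were Ogn, Igf2, Col1a1 and Fmod, and the arrays overlapped for Ogn and Fmod. The Fmod value is the mean of 2 probe sets that disagreed in e/e PBS 2 (-0.72 and -0.082).

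The 10 genes differed widely in how much they varied from array to array. The SD over the 8 arrays was 0.44 for Aldh1a2, 0.42 for Col1a1, 0.33 for Dcn, 0.31 for Fmod and 0.28 for Ogn, placing each at or above percentile 94.8 of all genes. It was 0.21 for Slc6a13, 0.16 for Igf2, 0.14 for Col3a1, 0.11 for Col1a2 and 0.095 for Lum. In wild-type NDP-MSH 2, 4 of the 10 genes had their highest value (Ogn, Slc6a13, Aldh1a2 and Fmod), which held for 25.1% of all genes. In e/e NDP-MSH 2, 9 of the 10 lay below their median, where 50.8% of all genes did, and Col1a2 was the exception at 0.0080.

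A longer list of other meningeal fibroblast genes, among them transporters and secreted proteins, was read array by array. Of its 46 genes 44 were measured, and 23 of the 44 had their highest value in wild-type NDP-MSH 2, where 25.1% of all genes did. In e/e NDP-MSH 2, 34 of the 44 lay below their median (50.8% of all genes). In e/e PBS 2, 31 did so (54.4% of all genes). Islr, a secreted immunoglobulin-like protein of fibroblasts, lay at -0.50 in e/e NDP-MSH 2, -0.58 in e/e PBS 2 and 0.44 in wild-type NDP-MSH 2. The organic anion transporter gene Slc22a6 lay at -0.21, -0.65 and 0.40 in these 3 arrays, and Pcolce, which speeds the trimming of procollagen, at -0.41, -0.19 and 0.41. Islr, Slc22a6 and Pcolce were picked after their values were seen, and not every gene of the list went this way. Above their median were 10 of the 44 in e/e NDP-MSH 2 and 13 in e/e PBS 2. Below it were 9 in wild-type NDP-MSH 2, against 43.5% of all genes. By limma 0 of 44 passed in either treatment comparison. At an unadjusted p under 0.05 the count was 2 of 44 in e/e mice, against 3.56% of all genes, and 4 of 44 in wild-type mice, against 12.3% of all genes. The smallest p in wild-type mice belonged to Bmp5 (-0.51 ± 0.10, adjusted p = 0.17) and Dpp4 (0.41 ± 0.11, adjusted p = 0.263). In e/e mice they belonged to Mgp (-0.30 ± 0.12) and the complement inhibitor gene Serping1 (-0.90 ± 0.36). Serping1 lay at -1.30 and -1.71 in e/e mice given NDP-MSH, against -1.22 and 0.013 in e/e mice given PBS. The interferon gamma list had medians of -1.94 and -1.96 in e/e mice given NDP-MSH, and of -1.65 and 0.67 in e/e mice given PBS. Its medians were 0.33 and 0.29 in wild-type mice given NDP-MSH, and -0.26 and 0.57 in wild-type mice given PBS.

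**Figure D3:**
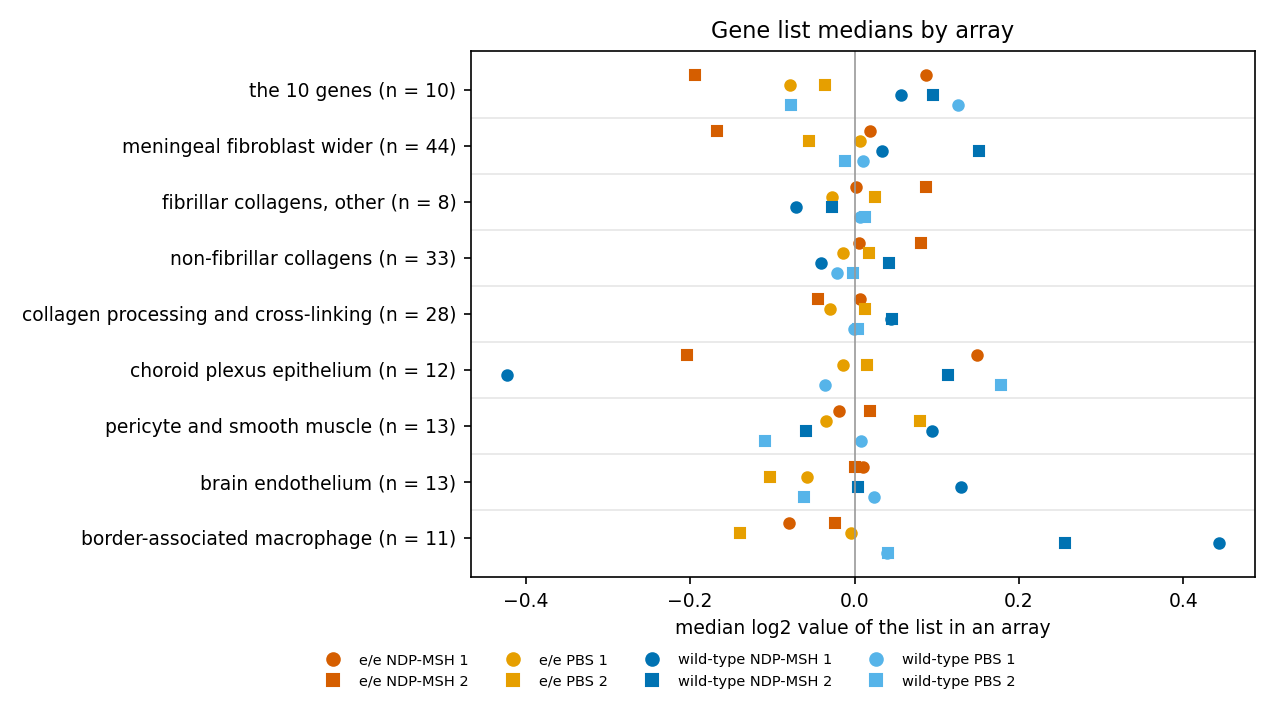
Median log2 value of each gene list in each array (horizontal axis), with lists down the page, circles for replicate 1, squares for replicate 2 and colours for groups. The 10 genes and the longer meningeal list were lowest in e/e NDP-MSH 2 (-0.19 and -0.17), the choroid plexus list was lowest in wild-type NDP-MSH 1 (-0.42), and the border macrophage list was highest in both wild-type NDP-MSH arrays (0.44 and 0.26).

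Gene lists of cell types that border the meninges or the vessels were read in the same arrays. The choroid plexus list, epithelium that secretes cerebrospinal fluid, had all 12 measured genes below their median in wild-type NDP-MSH 1 and 11 of 12 in e/e NDP-MSH 2, where 49.2% and 50.8% of all genes did. The list of border-associated macrophages, which live beside meningeal fibroblasts, had medians of 0.44 and 0.26 in wild-type mice given NDP-MSH, against 0.039 and 0.041 in wild-type mice given PBS. In that list 0 of 11 passed by limma, 4 of 11 had an unadjusted p under 0.05 in wild-type mice (12.3% of all genes), and Lyve1 (0.81 ± 0.12, adjusted p = 0.0887) and Cbr2 (0.80 ± 0.13, adjusted p = 0.107) had the smallest p. Of these 11 macrophage genes 0 had a probe set at a signal of 8 or above, against 29.8% of all genes. Pericyte and smooth muscle genes had list medians between -0.11 and 0.094 over the 8 arrays, and brain endothelial genes between -0.10 and 0.13. The part of these cell types in the values of the 10 genes was not tested.

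No other collagen gene passed by limma. A probe set at a signal of 8 or above was found for 0 of 8 other fibrillar and 1 of 33 non-fibrillar collagen genes. This held for 29.8% of all genes. Of 8 further fibrillar collagen genes 0 passed and 0 had an unadjusted p under 0.05 in either treatment comparison, with a median difference of 0.040 in e/e mice and -0.046 in wild-type mice. The smallest p in wild-type mice were those of Col27a1 (-0.26 ± 0.11) and Col2a1 (-0.18 ± 0.10). In e/e mice they were those of Col24a1 (0.16 ± 0.09) and Col5a2 (0.091 ± 0.101). Of 33 non-fibrillar collagen genes 0 passed and 1 in e/e mice and 3 in wild-type mice had an unadjusted p under 0.05 (3.56% and 12.3% of all genes), with median differences of 0.058 in e/e mice and -0.016 in wild-type mice. Col9a3 (-0.34 ± 0.08, adjusted p = 0.227) and Col6a4 (0.25 ± 0.09) had the smallest p in wild-type mice, and Col22a1 (0.35 ± 0.14) and Col6a2 (0.21 ± 0.10) in e/e mice.

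Enzymes, chaperones and binding proteins that process collagen gave no call in wild-type mice. Of 28 measured 0 passed by limma and 11 had an unadjusted p under 0.05, against 12.3% of all genes. Sparc, a collagen-binding matrix protein, lay at -0.23 and -0.39 in wild-type mice given NDP-MSH, against 0.055 and 0.081 in wild-type mice given PBS, a difference of -0.38 ± 0.08 (limma, adjusted p = 0.188). Serpinh1, the collagen chaperone of the endoplasmic reticulum, lay at -0.0034 and 0.23 in wild-type mice given NDP-MSH, against -0.30 and -0.41 in wild-type mice given PBS, a difference of 0.47 ± 0.11 (adjusted p = 0.211). Of the 11 genes 7 were higher and 4 lower. Next by p came Tll1 (-0.55 ± 0.13), which like Bmp1 (-0.52 ± 0.15) cleaves procollagen, then the cross-linking enzyme gene Lox (0.52 ± 0.13), the prolyl hydroxylase subunit gene P4ha1 (0.50 ± 0.13), Bmp1 itself and Pcolce2 (-0.33 ± 0.10). These 5 were named after their values were seen. In e/e mice Lox (-0.29 ± 0.13) and P4hb (-0.17 ± 0.08) had the smallest p, and 0 of 28 had an unadjusted p under 0.05 (3.56% of all genes).

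**Figure D4:**
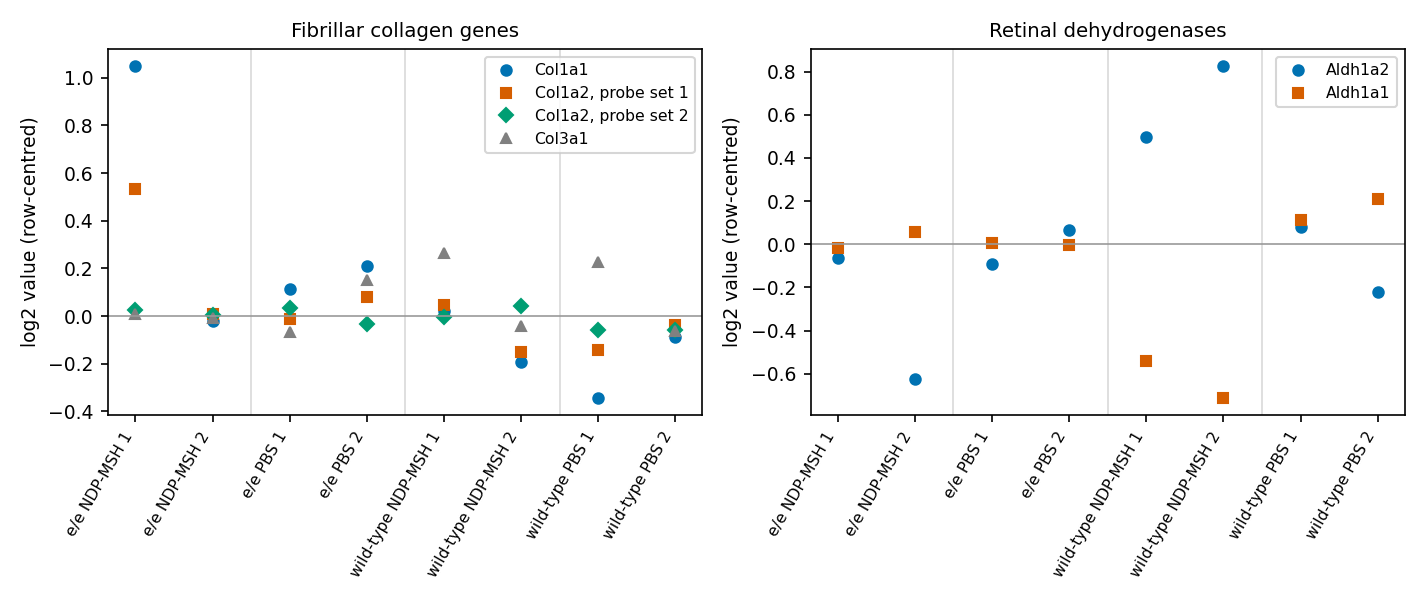
Log2 values by array (vertical axes) for fibrillar collagen genes, with both Col1a2 probe sets (left), and for Aldh1a2 and Aldh1a1 (right). Col1a1 and 1 of the 2 Col1a2 probe sets were high in e/e NDP-MSH 1 (1.05 and 0.53). After NDP-MSH in wild-type mice Aldh1a2 (0.50 and 0.83) and Aldh1a1 (-0.54 and -0.71) lay on opposite sides of 0.

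Matrix turnover and growth factor genes gave no call by limma either. At an unadjusted p under 0.05 the counts were 2 of 17 proteases and inhibitors in e/e mice (3.56% of all genes) and 4 of 17 in wild-type mice (12.3% of all genes). For TGF-beta genes they were 0 of 20 and 4 of 20, and for the insulin-like growth factor axis 0 of 17 and 4 of 17, in e/e mice and in wild-type mice. Of 17 proteases and inhibitors 0 passed, and Timp4 (-0.43 ± 0.09, adjusted p = 0.184) and Mmp8 (0.56 ± 0.19) had the smallest p in wild-type mice. In e/e mice these were Fap, a surface protease of activated fibroblasts (0.37 ± 0.09), and Ctsk (0.37 ± 0.13). Of 20 TGF-beta genes 0 passed, with Ltbp3 (-0.41 ± 0.13) and Ccn2 (0.28 ± 0.09) first in wild-type mice, and Ltbp4 (0.20 ± 0.09) and Tgfbi (-1.34 ± 0.65) in e/e mice. Of 17 genes of the insulin-like growth factor axis 0 passed, with Pappa, which cleaves IGF-binding proteins, at -0.63 ± 0.12 (adjusted p = 0.153) and Igfbp3 at 0.33 ± 0.09 in wild-type mice. In e/e mice the smallest p of that axis were those of Ins2 (-0.14 ± 0.08) and Igfbp7 (-0.17 ± 0.09). In the retinoic acid list the smallest p in e/e mice were those of Rdh10 (-0.19 ± 0.08) and Rbp4 (0.25 ± 0.13). Among 6 transporters related to Slc6a13, Slc6a6 for taurine had the smallest p in wild-type mice (-0.52 ± 0.09, adjusted p = 0.13), and 0 of 6 in e/e mice and 3 of 6 in wild-type mice had an unadjusted p under 0.05, beside the same shares of all genes.

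Several of the 10 genes lie beside a relative in the genome, by the protein-coding order in the RefSeq gene table. Dcn and Lum are neighbours, yet in e/e NDP-MSH 2 Dcn lay at -0.69 and Lum at -0.19, and Kera on the far side of Lum lay at 0.098. Ogn lies next to Omd (osteomodulin), another small leucine-rich proteoglycan. Omd lay at 0.077 and -0.60 in e/e mice given NDP-MSH, at -0.40 and -0.32 in e/e mice given PBS, at 0.33 and 0.63 in wild-type mice given NDP-MSH and at 0.068 and -0.068 in wild-type mice given PBS. Its difference in wild-type mice was 0.48 ± 0.21 (limma, adjusted p = 0.406), and its highest array was that of Ogn. Fmod lies next to Prelp, a proteoglycan with a value of 0.25 in wild-type NDP-MSH 2 and -0.34 in e/e PBS 2. In these arrays Fmod was highest and lowest, the latter by its probe set of higher signal (-0.72) and not by the other (-0.082). Col3a1 lies next to Col5a2, with -0.15 in wild-type NDP-MSH 2 and 0.12 in wild-type PBS 2. Slc6a13 lies between Slc6a12 and the interferon-induced gene Usp18, which lay at -1.21 and -1.25 in e/e mice given NDP-MSH, against -1.04 and 0.84 in e/e mice given PBS. Among 13 measured other small leucine-rich proteoglycans 0 passed in any comparison, and Epyc (-0.25 ± 0.09) and Ecm2 (-0.28 ± 0.11) had the smallest p in wild-type mice, as in e/e mice (-0.23 ± 0.09 and -0.18 ± 0.11). At an unadjusted p under 0.05 the count was 1 of 13 in e/e mice (3.56% of all genes) and 2 of 13 in wild-type mice (12.3% of all genes).

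The genes closest to the mean of the 10 genes were ranked by their mean absolute difference from it over the 8 arrays, among genes with an SD of at least 0.25. That mean stayed between -0.24 (e/e NDP-MSH 2) and 0.19 (wild-type NDP-MSH 2), so a small difference from it need not reflect a shared pattern. The 5 closest were Fbxo16 (0.099), the homeobox gene Prrx2 (0.10), Rtn4rl2 (0.10), Snord99 (0.11) and Cgref1 (0.11). They were followed by Otop2, Tdpoz9, Snx7, Dgat2 and Tmem176a, each at 0.12. Of the 10 genes themselves Lum was the closest to their mean (0.097) and Col1a1 the farthest (0.32). Each of the 10 is part of that mean, and Lum, with an SD of 0.095, varied less than the genes ranked.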

How the data were processed

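Total brain RNA was measured on 8 arrays. The table that the authors deposited holds processed values of 33793 probe sets, read here as log2. Its log base, summarisation and normalization were not given in the sources used here. Row medians were 0 within 5e-07. Per the labels' protocols, biotin-labelled cDNA was made with the WT Plus kit. The platform annotation gave 1 symbol to 23521 probe sets, several to 1814 (left out) and none to 8458. Probe sets were averaged per gene (22180 genes).

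limma 3.58.1 in R 4.3.3 fitted all 8 arrays jointly with a mean for each group (4 residual and 3.45 prior degrees of freedom), two-sided, with Benjamini-Hochberg adjustment over all genes, and was tested on simulated data. The number of arrays limits precision. The 10 genes and the lists were chosen with earlier results of these data known. By rule, all 10 are named, with neighbouring genes and the 10 other genes nearest to their mean. From a list, genes past the threshold (up to 2 per direction) are named, otherwise the 2 of smallest p in each treatment comparison. For the related transporters and border macrophages this was followed in wild-type mice only. It was not carried through for the lists of other cell types and tissues, which are given by medians, counts or single genes. Alternatives were a replicate block, array weights, quantile normalization, median centring, only the arrays compared, single probe sets, a signal of 8 or above, robust moderation and leaving out each array. For Aldh1a1 these, except single probe sets, were run after its value was seen. Scan dates were not used here. Figures used matplotlib 3.10.9.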

Additional observations from a re-analysis of the deposited data

How the results depend on the processing

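None of the 10 genes passed the threshold under any alternative run. Of 610 recomputed differences of the 10 genes 570 kept their direction and 40 reversed. Aldh1a2 kept its direction in wild-type mice (0.57 to 0.90, adjusted p of 0.179 to 0.777 by limma), in e/e mice (-0.61 to -0.053) and in their difference (0.79 to 1.35). With 1 array left out, 6 of the 10 genes turned direction in e/e mice, 6 in the difference of effects, 4 under PBS (Aldh1a2 among them) and 2 in wild-type mice. The replicate numbers showed no pairing common to all groups (correlations of deviations between -0.251 and 0.443 over 6 pairs of groups). The highest, 0.443, was between the wild-type PBS and e/e PBS groups. With the replicate number as a block the wild-type comparison called 14 genes instead of 39, while the other comparisons still called 0.

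Over all genes, the wild-type comparison called 20 after quantile normalization, 5 with only the arrays compared and 0 to 49 with 1 array left out (0 without wild-type PBS 2, 7 and 11 without wild-type NDP-MSH 1 and 2, 15 without wild-type PBS 1, 13 without either e/e NDP-MSH array). The e/e comparison called 0 to 51 with 1 array left out (51 without e/e PBS 1, 4 without e/e PBS 2). The difference between genotypes in response (wild-type minus e/e) called 1 after quantile normalization, 5 at a signal of 8 or above and 0 to 7 with 1 array left out (7 without e/e PBS 1), and the genotype comparison under PBS called 0 to 4 (4 without e/e PBS 1). Quantile normalization reversed Col3a1 (-0.019) and Slc6a13 (-0.025) in wild-type mice, and Ogn (-0.099), Fmod (-0.028) and the median of the 10 genes (-0.059) in the difference of effects. With 1 array left out, wild-type values ranged from -0.12 to 0.19 for Col3a1 and -0.11 to 0.20 for Slc6a13. In e/e mice they ranged from -0.054 to 0.23 for the median, -0.056 to 0.37 for Ogn, -0.046 to 0.25 for Igf2, -0.18 to 0.89 for Col1a1, -0.0089 to 0.26 for Col1a2, -0.15 to 0.065 for Col3a1 and -0.16 to 0.38 for Slc6a13. In the difference of effects they ranged from -0.098 to 0.26 for the median, -0.14 to 0.29 for Ogn, -0.76 to 0.31 for Col1a1, -0.20 to 0.067 for Col1a2, -0.080 to 0.23 for Col3a1, -0.34 to 0.20 for Slc6a13 and -0.15 to 0.37 for Fmod. Under PBS they ranged from -0.063 to 0.084 for Lum, -0.18 to 0.11 for Col3a1, -0.42 to 0.12 for Slc6a13 and -0.093 to 0.21 for Aldh1a2. The cause of these changes was not tested.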
